A study of Mus musculus with 3 samples.

Results

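The plasma of mice that had done resistance exercise was set against the plasma of normally caged mice, with 1 microarray for each. The resistance pool and the control pool are 2 of the 3 arrays of the series, and the comparison took in all 1900 miRNA probes on the chip, chosen because their names mark them as mouse miRNAs. Of these, 1336 probes were above background on both arrays and could be compared. All mice were C57BL/6 males aged 8 weeks, an inbred laboratory strain with no engineered allele named in the labels. The resistance group had an acute bout of resistance exercise, the aerobic group an acute bout of aerobic exercise, and the control group stayed in its cages. Per the labels, all animals were fasted overnight and blood came from the inferior vena cava, 3 h after the bout in exercised mice. Each pool mixed 100 µl of plasma from each of 3 mice into 300 µl, after spins at 3000 g and 16000 g, so mice within a group cannot be told apart. How the mice were exercised was not stated in the labels. The extraction text in the labels speaks of cells and the series text of a human chip, while the other labels name plasma and the probes name mouse miRNAs.

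miRNAs are short RNAs that pair with messenger RNAs through their seed, bases 2 to 8 of the mature strand, and lower the output of the paired message. In blood they circulate in vesicles, in lipoproteins and bound to Argonaute proteins, and come from red cells, platelets, leukocytes, endothelium and solid tissues such as liver and muscle. Some, such as miR-451a in red cells, miR-122-5p in liver and miR-133a-3p in striated muscle, are much used as markers of their source.

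The sequences below are those of the miRNAs whose values carry the comparison, from RefSeq on the mouse build GRCm38.p6, written from the first base of the mature strand with the seed in capitals. RefSeq held a sequence for 1618 of the 1900 probes. The let-7 family came first because most of its probes were brighter in the resistance pool. Its members have 1 seed and differ in a few bases outside it.
let-7a-5p: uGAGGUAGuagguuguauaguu
let-7d-5p: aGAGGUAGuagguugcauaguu
let-7f-5p: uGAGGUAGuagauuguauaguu
let-7e-5p: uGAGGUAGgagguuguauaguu
let-7i-5p: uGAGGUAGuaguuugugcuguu
let-7i-5p is the member that stayed within the scatter of repeated spots. The next are members of the miR-30, miR-15/16 and miR-17 families, each with a seed of its own.
miR-30a-5p: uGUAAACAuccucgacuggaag
miR-30c-5p: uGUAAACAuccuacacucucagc
miR-16-5p: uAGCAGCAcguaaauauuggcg
miR-15b-5p: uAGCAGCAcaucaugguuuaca
miR-195a-5p: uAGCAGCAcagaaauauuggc
miR-322-5p: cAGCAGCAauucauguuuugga
miR-17-5p: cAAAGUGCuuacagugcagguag
miR-93-5p: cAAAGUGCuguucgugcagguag
The following are brighter miRNAs outside those families.
miR-451a: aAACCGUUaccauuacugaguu
miR-24-3p: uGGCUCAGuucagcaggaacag
miR-23a-3p: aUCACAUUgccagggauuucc
miR-26a-5p: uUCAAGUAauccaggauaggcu
miR-205-5p: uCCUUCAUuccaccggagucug
miR-6989-5p: uUGGGGACagaggcacaggaug
The last are the miRNAs that were dimmer in the resistance pool, many of them rich in G and C.
miR-6912-5p: uACAGGGAgggugcucaggcag
miR-6912-3p: cUACCUGAgggucuccuuccugcag
miR-5129-5p: aUGUGGGGgcauugguauuuuc
miR-133b-3p: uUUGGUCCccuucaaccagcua
miR-762: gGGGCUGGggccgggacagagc
miR-3093-5p: cGCACCCCgcggagcucacacu
miR-7238-5p: aUGCGGAUgggacgcggc

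Most miRNAs differed little between the pools. Brightness is given as the raw intensity of the spot, and a difference as normalized log2 intensity of the resistance pool minus that of the control pool, so a value of 1 is 2-fold higher. The median difference was -0.01, and 1218 probes, 91.2%, stayed within a limit of 0.32, which is 1.25-fold. That limit is 2 SD of a difference between 2 single spots, from repeated spots of 2 spike-in probes with a pooled SD of 0.11 over the 3 arrays. The spikes averaged 13002 and 17869 raw units on the resistance array, so the limit was set on spots far brighter than most miRNA probes. Beyond the limit, 75 probes were higher in the resistance pool, 5.61% of those compared, and 43 were lower, 3.22%. With spike scaling in place of quantiles, 63 were higher and 58 lower, and in the authors' table of normalized intensities, whose median difference was -0.13, 180 were higher and 341 lower. At least 2-fold, 3 probes were higher (0.225%) and 1 was lower (0.0749%). With 1 pool per group there is no replicate check, no test was run, and the limit covers spot scatter alone, not differences between mice, pools or hybridizations. In pooled plasma, release from more cells and release of more RNA per cell cannot be told apart.

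The arrays were alike in blank level and median brightness, but not in the spots named No Probe. The blank spots averaged 93.3 on the resistance array and 92.01 on the control array, and the median miRNA probe stood at 109 on the resistance array and 107 on the control array. The resistance array had 1372 miRNA probes above background, 72.2%, and the control array 1431, 75.3%. Spots named No Probe were above background at 20.1% on the resistance array and 78.7% on the control array, of 174 on each. On the control array, being above background thus did not separate miRNA probes from spots named No Probe. The 21 repeated control probes other than spikes differed between the arrays by -0.07 to 0.08 before scaling. Of 22 control probes with a single spot, 1 exceeded the limit, S-Probe1007 at 490 in the resistance pool and 612 in the control pool. The 16 spots of Negative Control 1, which are dim, scattered more, with a pooled SD of 0.27 that gives a limit of 0.77. Against that wider limit, 5 miRNAs were higher and 3 were lower.

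**Figure D1:**
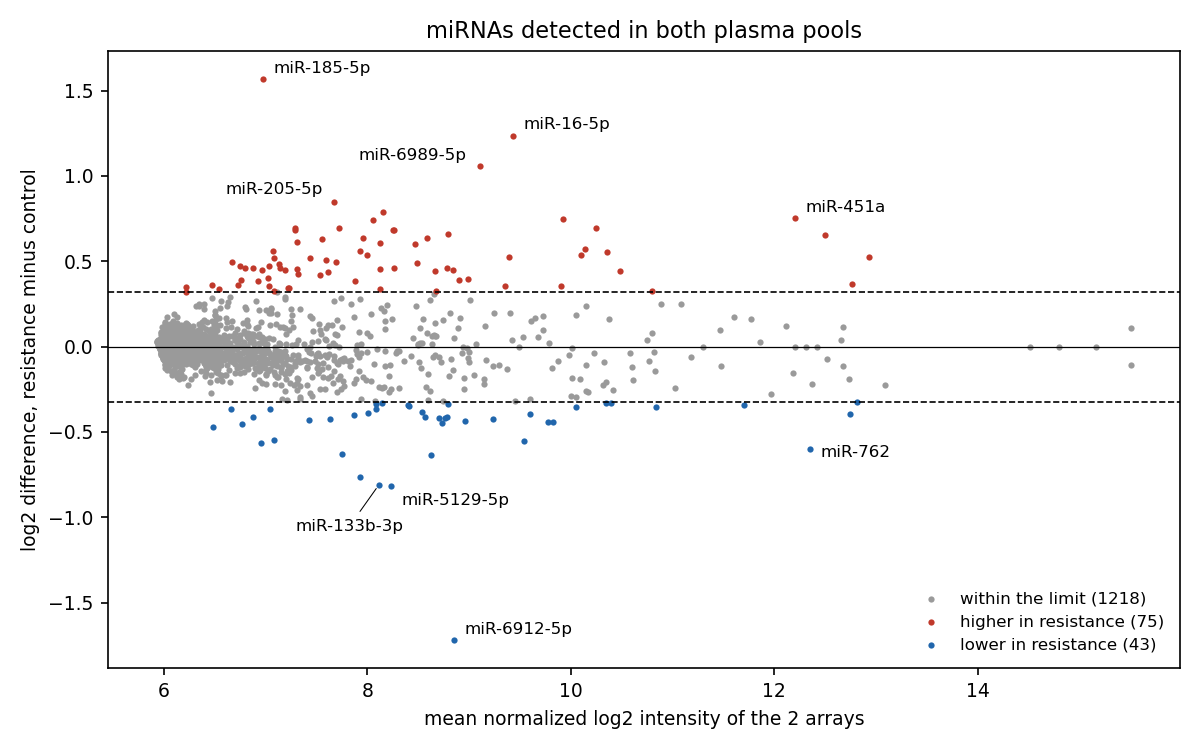
Each point is 1 of the 1336 miRNA probes above background in both plasma pools, with its mean normalized log2 intensity across and its log2 difference, resistance minus control, upwards; the dashed lines are the limit of 0.32. miR-16-5p, miR-185-5p and also miR-6989-5p stand above 1 and miR-6912-5p stands below -1, while most points lie near 0.

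The largest gain was in miR-185-5p, a miRNA of many tissues. Its spot read 243 in the resistance pool and 106.3 in the control pool, a log2 difference of 1.57 or 2.97-fold. In the aerobic pool the same spot read 117, near the control pool. The authors' table, which takes background off outright, gave 9.87-fold, so the fold differed by over 1.5 times between these treatments of background. The other strand of its hairpin, miR-185-3p, read 153 in the resistance pool and 160.3 in the control pool and stayed within the limit at -0.13.

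miR-16-5p, abundant in red cells and known as a repressor of cell cycle genes, followed. It read 1010.0 in the resistance pool and 464 in the control pool, 2.36-fold. The aerobic pool read 968. The normalized difference from the shared control pool was 1.24 for the resistance pool and 0.82 for the aerobic pool. miR-6989-5p, whose mature strand lies at chr19:6346485-6346506 on the plus strand within Map4k2, read 749 in the resistance pool and 389 in the control pool. Its difference of 1.06 fell just under 2-fold with median scaling, with spike scaling and as a plain ratio of raw values. The opposite arm, miR-6989-3p, was close to background in both pools and differed by 0.02.

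Next in order were miRNAs under 2-fold. miR-205-5p, a miRNA of squamous epithelium at chr1:193507503-193507524 on the minus strand, read 294 in the resistance pool, 178 in the aerobic one and 175 in the control pool. Its difference from the control pool was 0.85, and it set the resistance pool apart from the other two. miR-451a, the red cell miRNA made by Argonaute 2 without Dicer, read 5245 in the resistance pool, 5741 in the aerobic one and 3056 in the control pool, a difference of 0.75. miR-6239 read 1138 in the resistance pool, 1584 in the aerobic one and 763 in the control pool. Both were brighter in each exercise pool than in the control pool.

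The 15 largest gains also held let-7a-5p (0.79), let-7d-5p (0.74), let-7b-5p and let-7c-5p (0.68 each), all of the let-7 family. miR-126a-5p, from an intron of the endothelial gene Egfl7, read 225 in the resistance pool and 152 in the control pool. miR-26a-5p, which represses Ezh2, read 290.3 in the resistance pool and 193 in the control pool. miR-24-3p, miR-15b-5p and miR-30d-5p completed the 15, at 0.69, 0.68 and 0.66. These miRNAs are conserved, widely expressed and long studied, and they lay between 1.58- and 1.73-fold.

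**Figure D2:**
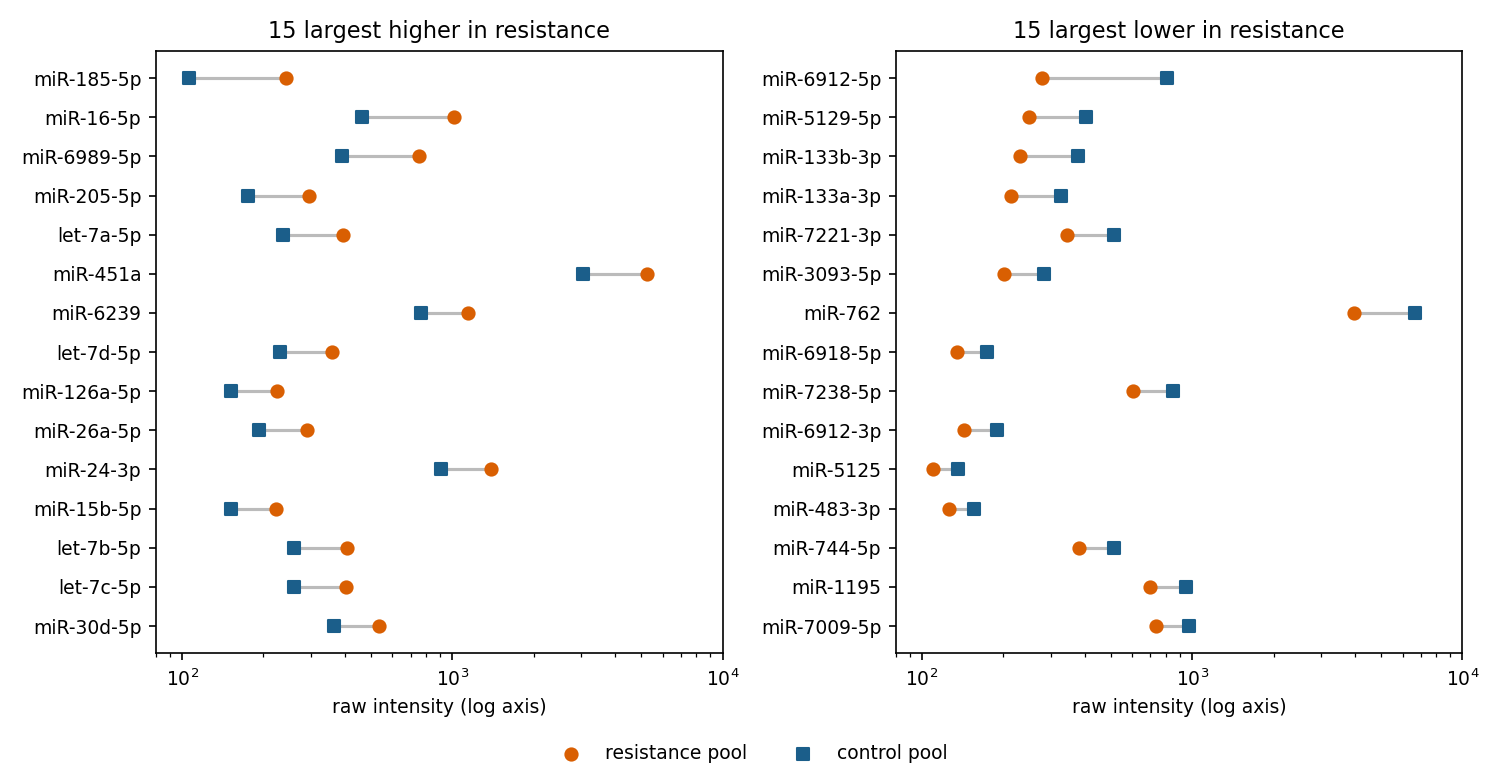
Raw spot intensity on a log axis of the 15 miRNAs with the largest differences upwards (left) and downwards (right), with the resistance pool as circles and the control pool as squares, 1 spot for each. miR-451a and miR-762 are far brighter than the rest, and most of the others lie between 100 and 1000.

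Some families with shared seeds lay on the higher side. Of 28 seeds with 3 or more compared probes, 4 had a median above the limit and 1 below it. The seeds of miR-24-3p and miR-125b-5p, GGCUCAG and CCCUGAG, had medians of 0.06 and -0.09. The shares over all compared probes, to set beside each family count below, were 5.61% higher and 3.22% lower. The let-7 family, which restrains growth genes such as Hmga2 and Lin28, had 9 of 10 probes beyond the limit and none below, with a median of 0.62 against -0.01 over all probes. let-7a-5p read 393 in the resistance pool and 237 in the control pool. The smallest difference was in let-7i-5p, 190.5 in the resistance pool and 159 in the control pool. The whole family thus lay on the higher side, by 0.29 to 0.79. Cross-hybridization between members that differ by 1 or 2 bases was not tested, and such probes are not independent.

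The miR-30 family, known for its part in kidney, muscle and fat cells, had 5 of 5 probes higher, from 0.49 in miR-30e-5p to 0.66 in miR-30d-5p, with a median of 0.61. miR-30d-5p read 536 in the resistance pool and 364 in the control pool. Both members of the miR-26 family were higher, with a median of 0.58. The miR-23, miR-27 and miR-24 group, transcribed from a pair of clusters and studied in vessels and blood cells, had 5 of 5 higher and a median of 0.56. miR-24-3p read 1387 in the resistance pool and 906 in the control pool, and miR-27a-3p, the lowest of the 5 at 0.49, read 422 in the resistance pool and 312 in the control pool.

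The miR-15/16 family, repressors of cyclins and Bcl2, had 4 of 6 higher with a median of 0.50. miR-322-5p, the smallest of the 6 at 0.24, stayed within the limit. miR-6342 and miR-6419 have the same seed, AGCAGCA, but were not on the list. With them, the 8 probes of that seed had 4 higher, a median of 0.35 and a lowest value of -0.04. In the miR-17-92, miR-106b-25 and miR-106a-363 clusters, known for driving cell growth, 7 of 13 were higher and the median was 0.35. All 6 probes with the seed AAAGUGC were higher, by 0.35 to 0.52, as was miR-25-3p at 0.44. miR-18a-5p and miR-18b-5p, with the seed AAGGUGC, differed by 0.10 and 0.01. Both were near background, at 107 and 98.0 in the resistance pool and 102 and 96.7 in the control pool. They therefore cannot be set against the brighter AAAGUGC probes. The miR-99/100 and miR-125 group had 3 of 5 higher, with a median of 0.38 and miR-125b-5p at the top with 0.46. miR-99b-5p was its lowest at 0.07.

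Other families had smaller differences on this scale. The miR-29 family, repressors of collagen genes, had none of 3 beyond the limit, from 0.19 in miR-29c-3p to 0.24 in miR-29a-3p. The miR-181 family had none of 4, from -0.05 in miR-181d-5p to 0.13 in miR-181a-5p. In the miR-34 family, downstream of p53, just miR-34a-5p could be compared, at 103 in the resistance pool and 105 in the control pool. It and miR-181b-5p, miR-181c-5p and miR-181d-5p were dim. The background correction pulls folds of dim probes towards 1, so their small differences cannot be told from dimness. The authors' table gave miR-181a-5p to miR-181d-5p 0.25, 0.39, 0.92 and -0.53. It gave miR-34a-5p -0.45, and miR-29a-3p, miR-29b-3p and miR-29c-3p 0.30, 0.33 and 0.33.

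**Figure D3:**
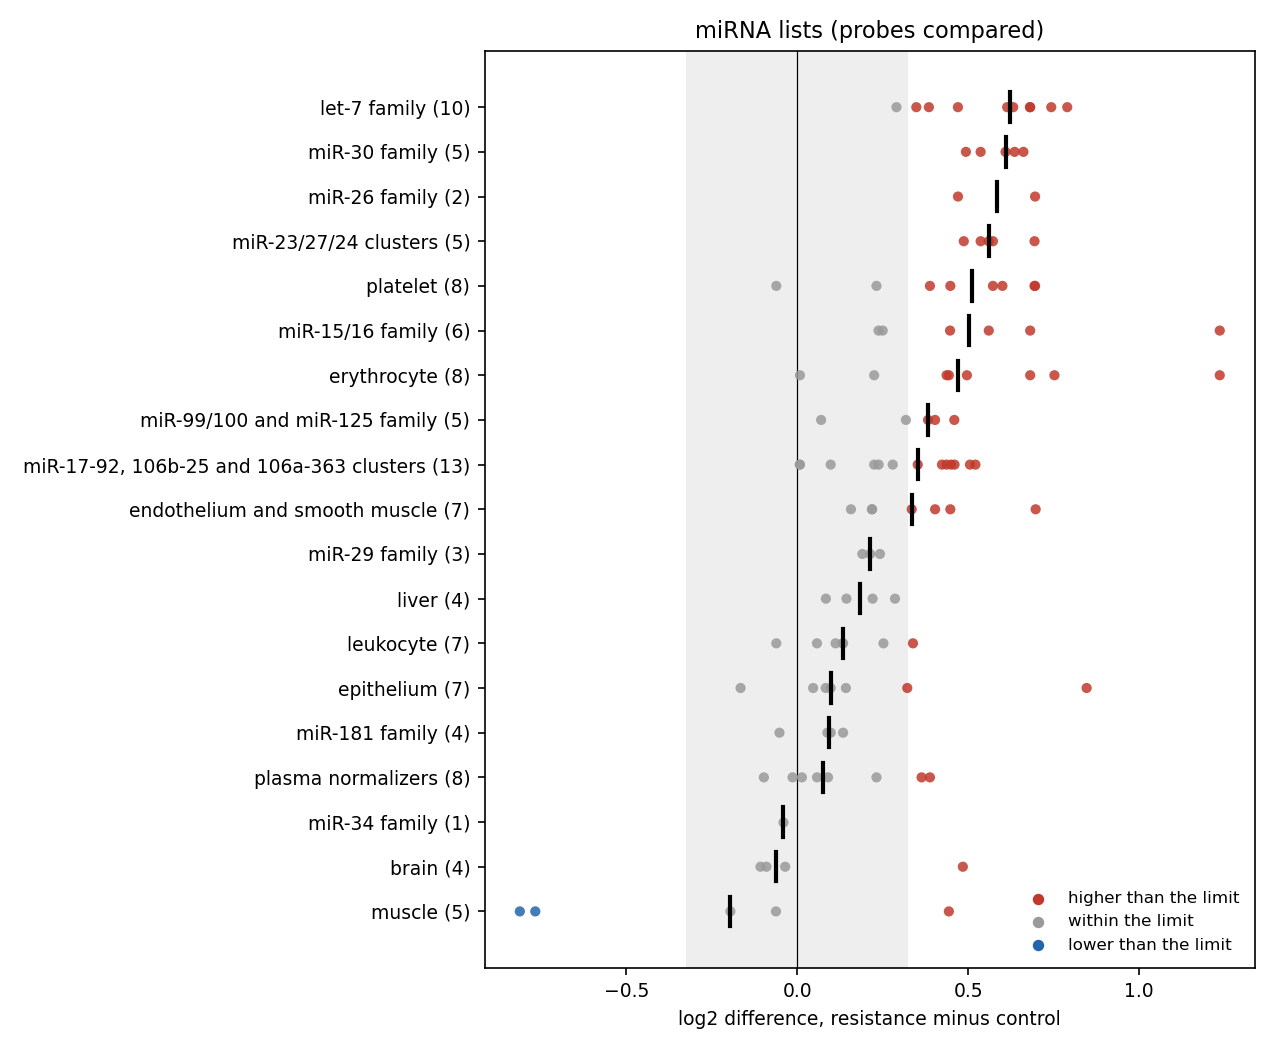
Each point is a probe of the named list, with its log2 difference, resistance minus control, across; black bars are list medians, the grey band is the limit of 0.32, and the number of probes compared stands beside each name. The let-7, miR-30, miR-26 and miR-23/27/24 lists lie at or near the right of the band, let-7i-5p alone among them inside it, and the 2 miR-133 probes lie far to the left.

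Among the lists of cell types and tissues, platelet and erythrocyte miRNAs had the highest medians. Of all compared probes, 5.61% were higher and 3.22% lower. Both lists share probes with the families above, so they are not separate observations. The erythrocyte list shares miR-16-5p, miR-15b-5p, miR-25-3p, miR-92a-3p and miR-363-3p. The platelet list shares miR-23a-3p, miR-24-3p and miR-26a-5p, and its miR-126a-3p is also on the endothelium and smooth muscle list. Of 9 erythrocyte probes, 8 were compared, 6 were higher and none lower, with a median of 0.47. Their summed raw intensity above blank was 7025 in the resistance pool, 7610.1 in the aerobic one and 3977 in the control pool. That was 1.64% of all miRNA signal above blank in the resistance pool, 1.34% in the aerobic one and 0.857% in the control pool. miR-451a made up most of the sum, miR-144-5p was below background in both pools, and miR-363-3p was level at 0.01. miR-144-3p, from the same locus as miR-451a, read 152 in the resistance pool and 118 in the control pool. The part of red cell RNA in the other differences was not tested.

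The platelet list had 6 of 8 probes higher and a median of 0.51, where 5.61% of all compared probes were higher and 3.22% lower. miR-223-3p, which leukocytes also hold, was the lowest, with 409 in the resistance pool and 422 in the control pool. The leukocyte list had 1 of 7 higher, miR-150-5p of lymphocytes, at 343 in the resistance pool and 263 in the control pool. That count is too small to set apart from the share over all compared probes. The median of the leukocyte list was 0.13. The endothelium and smooth muscle list had 4 of 7 higher with a median of 0.33: both arms of miR-126a passed the limit, while miR-145a-5p of smooth muscle differed by 0.16.

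The liver and epithelium lists are short, and over all compared probes 5.61% were higher and 3.22% lower. None of 4 liver probes passed the limit, from 0.08 in miR-194-5p to 0.29 in miR-148a-3p, and the median was 0.18. miR-122-5p, the leading miRNA of hepatocytes, read 192 in the resistance pool, 290.2 in the aerobic one and 167 in the control pool. The epithelium list had 2 of 7 higher with a median of 0.10, and the second, miR-203-3p, lay on the limit at 0.32. miR-141-3p was the lowest of that list at -0.17, and the authors' table put it 2.53-fold lower. That table gave the list a median of 0.51, past the limit, with miR-203-3p at 1.44 and miR-429-3p at 1.22. These probes are dim. Of 9 brain probes 4 were compared, and miR-212-3p, induced by CREB in neurons, was the 1 that was higher, at 193 in the resistance pool and 148 in the control pool. miR-138-5p was the lowest there at -0.11, and the list median was -0.06. Among 8 miRNAs used as plasma normalizers, 2 were higher, the median was 0.07, and the range ran from -0.10 in miR-423-5p to 0.39 in miR-103-3p.

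Over all 19 lists, 97 probes were compared, of which 48 were higher and 2 were lower. The 1239 compared probes on no list held 27 that were higher and 41 that were lower. The lower probes lay mostly off the lists, while the higher ones were on and off them. Over all compared probes, 5.61% were higher and 3.22% lower. The lists were chosen with earlier results of these data known, so this split is no result about the listed miRNAs. Probes with a miRNA number under 1000 had 57 higher and 10 lower of 502, and those numbered 1000 or above had 18 higher and 33 lower of 834.

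The miR-133 pair, expressed in striated muscle, went the other way. miR-133b-3p, which helps set the balance of muscle cell growth and differentiation, read 230.3 in the resistance pool, 181 in the aerobic one and 379 in the control pool. miR-133a-3p read 213 in the resistance pool, 155 in the aerobic one and 326 in the control pool. Both were lower in the resistance pool than in the control pool, by -0.81 and -0.77, and were the only probes on any list beyond the limit in that direction. The 2 strands differ little, so their probes are not independent.

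miR-1a-3p, made from the same primary transcripts as miR-133a-3p, read 146 in the resistance pool, 104 in the aerobic one and 158 in the control pool. Its difference of -0.20 stayed within the limit. miR-206-3p of skeletal muscle was near background, at 100.1 in the resistance pool and 102 in the control pool. miR-499-5p and the pair miR-208a-3p and miR-208b-3p, all hosted in myosin heavy chain genes, were below background in both pools. miR-486a-5p, on a probe that also names miR-486b-5p, was higher at 0.44, and it belongs to red cells as well as to muscle. Over the list of 8, 5 were compared, 1 was higher and 2 were lower, where 5.61% of all compared probes were higher and 3.22% lower. The median was -0.20. The summed intensity above blank was 685 in the resistance pool, 579 in the aerobic one and 862 in the control pool.

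The largest loss of all was in miR-6912-5p, at chr10:80609265-80609286 on the plus strand within Scamp4. It read 279 in the resistance pool, 322 in the aerobic one and 804 in the control pool, a difference of -1.72. Its other arm, miR-6912-3p, read 144 in the resistance pool and 190 in the control pool and was lower too, by -0.55. miR-6912 was the 1 hairpin with both arms lower.

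miR-5129-5p, at chr2:45023146-45023167 on the minus strand within Zeb2, came second. It read 249 in the resistance pool, 341 in the aerobic one and 404 in the control pool. miR-7221-3p read 345 in the resistance pool and 512 in the control pool, while its other arm was level at 233 in each. miR-3093-5p read 201 in the resistance pool and 284 in the control pool. All of these have high miRNA numbers, given to miRNAs annotated late.

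miR-762, one of the brighter spots on the chip, read 3979.6 in the resistance pool and 6668 in the control pool, a difference of -0.60. It shares the seed GGGCUGG with miR-6940-5p and miR-7648-3p, and 2 of these 3 probes were lower with a median of -0.34. miR-483-3p, from an intron of Igf2, read 126 in the resistance pool and 155 in the control pool. miR-744-5p, within Map2k4, read 380.4 in the resistance pool and 512 in the control pool. The other miRNAs among the 15 largest losses were miR-6918-5p (-0.56), miR-7238-5p (-0.55), miR-5125 (-0.47), miR-1195 (-0.44) and miR-7009-5p (-0.44). miR-5125 is dim, and the authors' table put it 2.78-fold lower against 1.39-fold here.

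Some miRNAs were above background on 1 array alone, 36 in the resistance pool and 95 in the control pool. For these a lower bound of the fold was taken on the normalized scale, after background correction, as the brighter value against the detection floor of the dim array or the dim spot where that was higher. It therefore differs from the plain ratio of raw values, which still hold the background, and it depends on the correction and scaling. miR-590-5p read 156 in the resistance pool, 91.7 in the aerobic one and 91.1 in the control pool, and its normalized value was at least 2.06-fold higher. miR-1901 read 95.9 in the resistance pool, 185 in the aerobic one and 150.2 in the control pool, and its normalized value was at least 1.96-fold lower. Each was the 1 bound beyond the limit in its direction. The next largest were miR-101a-3p, miR-155-5p and miR-463-5p, at least 1.12-, 1.11- and 1.11-fold higher, and miR-6920-5p, miR-7006-3p and miR-802-3p, at least 1.19-, 1.07- and 1.06-fold lower. The bound was over 1 for all 36 miRNAs of the resistance pool and for 59 of the 95 of the control pool. For the rest of the 95 it set no fold above 1. The larger number for the control pool stands beside the larger share of No Probe spots above background there, and the part of that in these counts was not tested.

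The arms of 1 hairpin seldom passed the limit together. Of 726 hairpins with both arms on the chip, 396 had both arms compared. Among these 396, 30 had an arm that was higher, in 27 of them just the arm that was brighter in the control pool, in 1 the dimmer arm and in 2 both arms, miR-126a and miR-23a. Another 30 had an arm that was lower, in 26 just the brighter arm, in 3 the dimmer arm and in 1 both. No hairpin had arms beyond the limit in opposite directions. Few dim probes passed the limit: of all compared probes under 120 raw units, 2 of 584 did. That class does not go by the control pool alone, so a probe that rose could leave it. miR-185-5p read 106.3 in the control pool and passed the limit. The background correction also pulls folds of dim arms towards 1, such as miR-205-3p, at 99.4 in the resistance pool and 99.1 in the control pool. The counts therefore cannot show whether a dim arm moved with its partner. Across the 396 hairpins the arms' differences had a Pearson r of 0.20 and a Spearman rho of 0.15, a description over probes that share the same pair of arrays.

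**Figure D4:**
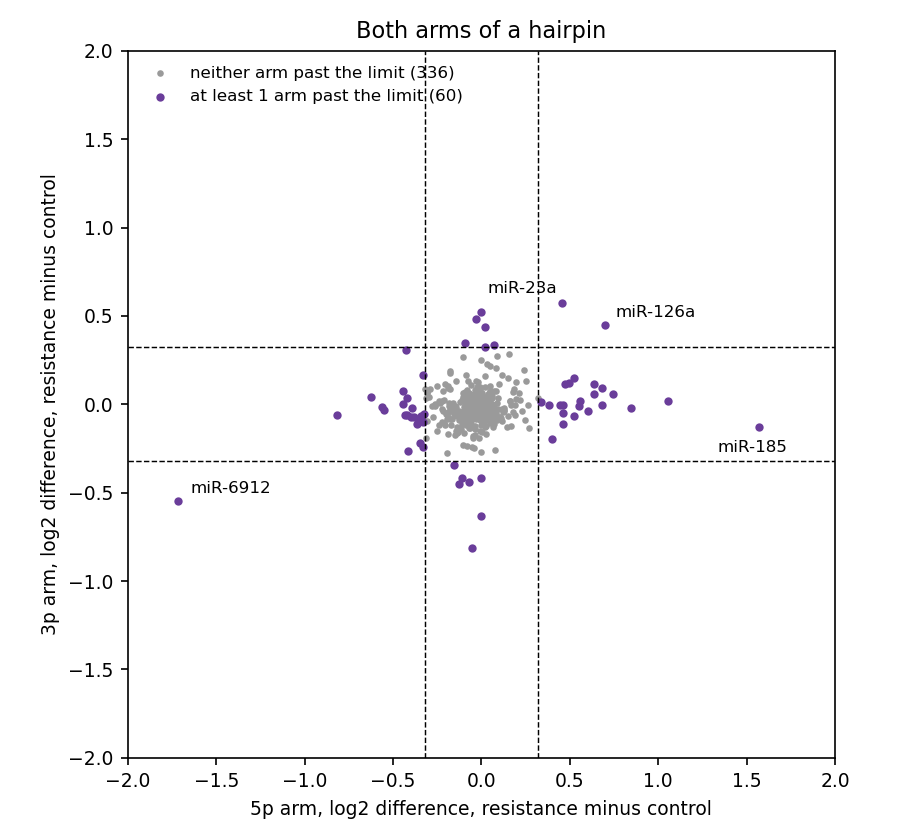
Each point is 1 of 396 hairpins with both arms above background in both pools, with the log2 difference, resistance minus control, of the 5p arm across and of the 3p arm upwards; dashed lines are the limit of 0.32. Points past the limit lie mostly along 1 axis or the other, and miR-6912, miR-126a and miR-23a have both arms past the limit.

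miRNAs made from neighbouring hairpins could also be set side by side, taking groups of 3 or more hairpins with gaps of at most 10 kb. Several of their probes were already counted in the lists above, so they are not separate observations. The shares over all compared probes were 5.61% higher and 3.22% lower. The group of Mir144, Mir451a and Mir451b on chromosome 11 had the highest median, 0.50 over 3 probes. The Mir23a, Mir27a and Mir24-2 group on chromosome 8 had 4 of 7 probes higher and a median of 0.46, and the Mir25, Mir93 and Mir106b group on chromosome 5 a median of 0.44 with 3 of 5. The long imprinted group on chromosome 12 that holds Mir379 and Mir410 had a median of 0.02 over 38 probes. Some of its probes, such as both arms of miR-381 and of miR-299a, were near background, while both arms of miR-667 were brighter. The background correction pulls folds of dim probes towards 1, so this median cannot be set against those of the groups above. The Mir290 to Mir295 group of early embryos had a median of -0.08 and none of 11 probes beyond the limit.

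Base composition differed between higher and lower probes. A mature sequence was at hand for 1149 of the compared probes. Below 40% G and C, 9 of 47 probes were higher and none lower. At 70% or more, 2 of 77 were higher and 14 were lower, and the medians of these end classes were 0.09 and -0.09. The higher probes had a median of 47.8% G and C over 65 sequences, the lower ones 63.6% over 39, and those within the limit 56.0% over 1045. Across the 1149 probes, difference and G and C share had a Pearson r of -0.30 and a Spearman rho of -0.32, as a description of probes that share 2 arrays and 1 labelling. The same measures were -0.38 and -0.36 over the 759 probes brighter than 10 SD above blank on both arrays. They were -0.33 and -0.28 over the 415 numbered below 1000, and -0.17 and -0.26 over the 734 numbered 1000 or above. The classes also differed in brightness, with a median raw intensity in the control pool of 107 below 40% and 430 at 70% or more. The part of base composition in the gains of the let-7 and miR-30 families and in the losses of the late-numbered miRNAs was not tested.

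**Figure D5:**
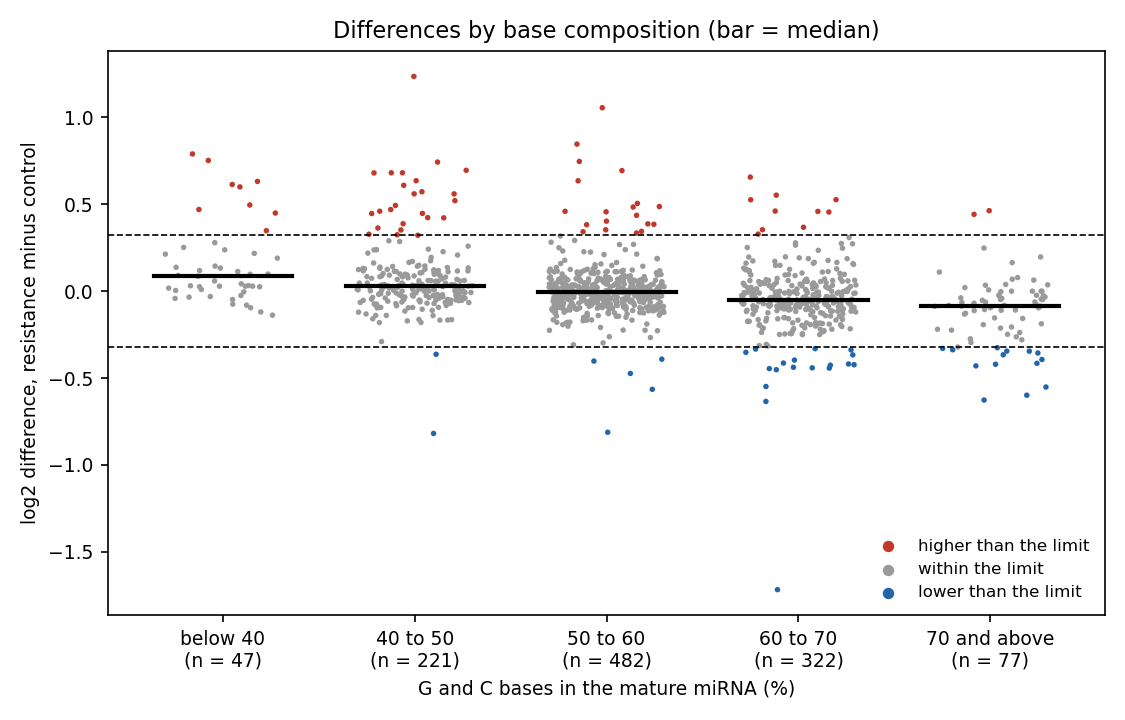
Each point is a compared probe with a RefSeq mature sequence, set in a class by its share of G and C in percent and spread sideways for sight, with its log2 difference, resistance minus control, upwards; black bars are class medians and dashed lines the limit of 0.32. The medians run from 0.09 below 40% to -0.09 at 70% or more.

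Spread also differed with brightness, in classes that do not go by the control pool alone. Probes under 120 raw units had an SD of 0.07 in their differences, with 2 of 584 beyond the limit. Those between 120 and 200 had an SD of 0.19, those between 200 and 500 an SD of 0.30, and those between 500 and 2000 an SD of 0.38. The 33 probes at 2000 or more had a smaller SD of 0.28, with 4 higher and 4 lower. At the bright end some values differed by more than the limit between quantile scaling and the authors' table. miR-3473b read 7342 in the resistance pool and 6758 in the control pool, with a difference of 0.53 after quantile scaling and 0.03 in the authors' table. miR-2137 read 19060.0 in the resistance pool and 25186 in the control pool, with 0 after quantile scaling and -0.50 in the authors' table.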

How the data were processed

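Plasma miRNA was measured on 1-colour 3D-Gene arrays, 1 array for each pool. Per the file headers, the deposited scanner files hold linear raw spot intensity, with a background-subtracted and a globally normalized intensity made by the authors. The authors' deposited value table repeats that normalized intensity, with a median of 25 in each column. Scanner settings were not stated in the labels.

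Background was the mean of 806 blank spots, the 896 on the array less 5% at either end. A probe was detected above that mean plus 2 SD, which gave 0 differences from the authors' empty cells; the rounding of the trim was chosen for that match. Raw intensities were corrected by normexp in limma 3.58.1 (R 4.3.3), offset 50, and log2 values were quantile normalized across the 3 arrays. The offset pulls folds of dim probes towards 1. Tables were made with pandas 2.3.3 in Python 3.11.15, and the steps were tested on simulated data.

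Each group has 1 array, so no test was run, and the number of arrays limits the precision. The text names the 15 largest differences each way, the 4 largest bounds each way, their other arms, the ends of each list, and fixed muscle miRNAs. Other miRNAs named were chosen after their values were seen. The members and the 19 lists were chosen with earlier results of these data known. 10 alternatives were run, of which the plain raw ratio was chosen after seeing the data. Mature sequences come from RefSeq.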

Additional observations from a re-analysis of the deposited data

How the results depend on the processing

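The counts rest on how background is removed. With a normexp offset of 0, 8 miRNAs were at least 2-fold higher and 2 lower, and 166 were higher and 130 lower than the spot scatter limit. With the blank mean subtracted and median scaling, the counts were 15 and 24 at 2-fold, and 180 and 338 at the limit. The authors' table gave 15 and 24 at 2-fold, and 180 and 341 at the limit. That table's median difference was -0.13, against -0.01 here. The cause was not tested. Under the other 7 alternatives, 57 to 76 miRNAs were higher and 41 to 58 lower. The higher share of all calls was 63.6%, 34.5% in the authors' table, 34.7% with blank subtraction and 52.1% with spike scaling. miR-16-5p, miR-185-5p and miR-6912-5p stayed past 2-fold under all 10 alternatives, and miR-6989-5p under 7. Over all alternatives, 29 list medians moved by more than spot scatter and 160 did not; in the authors' table the epithelium median was 0.51 and the muscle median -0.57. None of the named differences past the limit changed sign. No paired analysis was possible because each group has 1 array.

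Scatter differed between control probes: the blank spots had SDs of 0.06 on the resistance array and 0.05 on the control array, and Negative Control 1 a pooled SD of 0.27, against 0.11 for the spikes that set the limit. Pools hide the spread between mice.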
